A study of Mus musculus with 14 samples.

Results

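The comparison described here is between cultures of mouse CD4 T cells that were polarised towards the Th17 fate with acetate and cultures polarised towards the regulatory (Treg) fate with acetate. It holds 5 of the 14 arrays of the study, 3 labelled as acetate-treated Th17 and 2 labelled as acetate-treated Treg, taken by their labels alone. The study cultured T cells of mouse lymphoid tissue as Th17, Treg or Th1 cells, each with and without acetate, a short-chain fatty acid that gut bacteria release from dietary fibre. Total RNA was hybridised to Affymetrix Mouse 430 2.0 arrays, which carry several short probes (a probe set) for each transcript. The question was which differences between the Th17 and Treg cultures stood when both received acetate. The 3 untreated Th17 and 2 untreated Treg arrays, which share no array with the acetate comparison, served as the reference for the same contrast.

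All cultures received human IL-2 at 100 U/ml, and the Th17 and Treg cultures both received human TGF-b1 at 5 ng/ml. The Th17 cultures also received mouse IL-6 at 20 ng/ml, IL-1b at 10 ng/ml, IL-23 at 10 ng/ml, IL-21 at 10 ng/ml and TNF-a at 20 ng/ml, with antibodies that block IL-4 and IFN-gamma. No other cytokine or antibody is named for the Treg cultures, so the fate and the direct action of these agents on a gene cannot be told apart. The treated Th17 cultures received acetate at 10 mM. The study's design text names sodium acetate at 10 mM for all treated groups, whereas the protocol of the treated Treg samples names acetone at 10 mM. The samples are called acetate-treated here after their titles and the design text. Culture lasted 5 days per the protocols and 6 to 7 days per the design text. No source used here gives strain, age, sex or the number of animals, and nothing says that replicates came from separate cultures, so p-values measure the spread between these arrays, which may be technical.

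Th17 cells secrete IL-17A and related cytokines and guard mucosal surfaces. Treg cells depend on the transcription factor Foxp3 and restrain other T cells. Both fates need TGF-b, and inflammatory cytokines such as IL-6 turn the same precursor away from Foxp3 and towards IL-17A.

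Values are given as normalised signals, the deposited signals after quantile normalisation over all arrays. Differences are Th17 minus Treg means of log2(signal + 3), so a positive difference is a higher signal in Th17, and the added 3 understates the difference of dim genes. Each is given with its standard error (SE) from the limma fit over all 14 arrays. A gene is called when its limma p-value, adjusted by the Benjamini-Hochberg method over the 10916 genes tested, was under 0.05. The labels were checked first on their defining genes. Il17a, the signature cytokine, read 4184, 5370.3 and 3126 in the acetate Th17 arrays and 10.5 and 15.8 in the acetate Treg arrays. Foxp3 read 14.1, 7.77 and 19.9 in the acetate Th17 arrays and 51.9 and 66.0 in the acetate Treg arrays. Neither gene overlapped between the groups, in the direction of the labels. The Foxp3 signals of the acetate Treg arrays were nonetheless low, under both untreated Treg arrays (283 and 383), with acetate Treg replicate 2 within and replicate 1 below the range of the untreated Th17 arrays (85.1, 55.7 and 108). The T-cell genes Cd3e (407 to 533 over the 5 acetate arrays) and Cd4 (164 to 379) were measured in all 5.

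The acetate Th17 arrays were the more variable group, with a median SD over genes of 0.28 on the log2 scale against 0.15 for the acetate Treg arrays. Acetate Th17 replicate 1 correlated with its own group at 0.944 and 0.947 and with the acetate Treg arrays at 0.950 and 0.939, so on this measure it stood as near to the other group as to its own. Before normalisation the trimmed mean signal was 65.9 to 73.2 on the acetate Th17 arrays and 56.2 to 57.1 on the acetate Treg arrays. The array's control for 18S ribosomal RNA read 3350 to 4149 on the former and 507 to 816 on the latter. The protocols describe the RNA labelling of the 2 fates in different words, and neither that nor the 18S signal can be told apart from the fate. The 3′ to 5′ ratios of the Gapdh control, a measure of RNA quality, were 0.992 to 1.08 and 1.02 to 1.03. The untreated Treg arrays stood apart from the other 12 in this ratio, at 1.22 and 1.23 against 0.986 to 1.10, and their 18S signals were 3134 and 582. Both enter the untreated contrast and the interaction, and the part of this in those results was not tested.

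With acetate, 107 of 10916 genes (0.98%) were called, 48 higher in Th17 (0.44%) and 59 lower (0.54%). The 3 Th17 signals lay beyond both Treg signals for each of the 107, as they did for 3086 (28.3%) of all genes tested. The median absolute difference of the called genes was 1.72, and the smallest was 0.68. Without acetate the same contrast called 1231 genes (11.3%), 564 higher (5.17%) and 667 lower (6.11%). In bulk cultures fewer cells of a type and less RNA per cell cannot be told apart, here and below. Of the acetate calls 77 (0.705% of the genes tested) were also called in untreated cultures with the same sign, 33 higher and 44 lower, and 0 with the opposite sign. That is 72.0% of the acetate calls and 6.26% of the untreated calls. For these 77 genes the median absolute difference was 1.93 with acetate and 2.22 without, and 33 of them differed more with acetate. A direct test of the difference between the acetate and the untreated contrast (the interaction) called 51 genes (0.467%), 20 with a positive value (0.183%) and 31 with a negative value (0.284%).

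**Figure D1:**
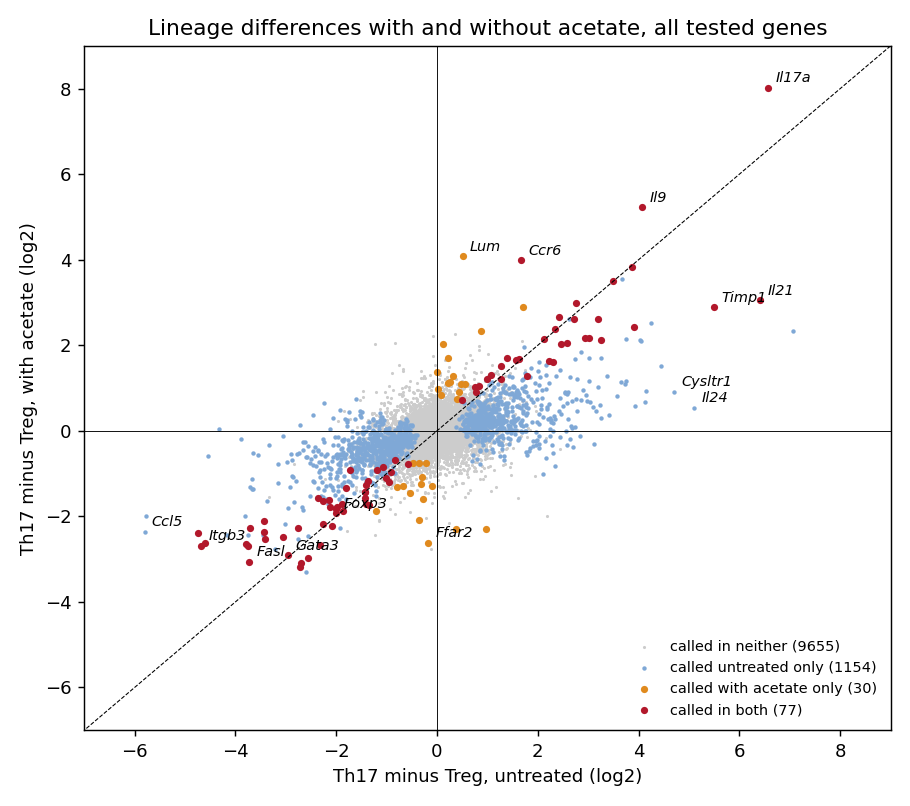
Th17 minus Treg difference in log2(signal + 3) without acetate (x axis) and with acetate (y axis); each point is 1 of the 10916 genes tested, coloured by whether it was called in neither contrast (9655), without acetate only (1154), with acetate only (30) or in both (77), and the dashed line marks equal differences. The genes called in both lie in the upper right and lower left, whereas many genes called only without acetate lie close to 0 on the y axis.

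The count of acetate calls rested on few arrays. On leaving out acetate Th17 replicate 1 it was 153, of which 90 were among the 107. It was 39 on leaving out acetate Th17 replicate 2 and 133 without replicate 3. Leaving out acetate Treg replicate 1 gave 21 calls and leaving out replicate 2 gave 18, where the remaining Treg array is assumed to vary as the other groups do. The genes called in both contrasts numbered 115 on leaving out acetate Th17 replicate 1, 35 without replicate 2, and 19 and 16 on leaving out acetate Treg replicates 1 and 2. On the signals as deposited, where the median difference of all genes was 0.25, the split of acetate calls was 60 higher and 17 lower. A fit of the 5 acetate arrays alone gave 33 calls, of which 26 were among the 107. It did not call Foxp3, Entpd1, Il2rb, Ahr, Aqp3, Ppp1r3c, Gbp7, Calhm6, Ifi209, Havcr2, Gzma, Gzmc, Pglyrp1, Klra5, Cd5l or Pou2af1, which are named below. The losses described per gene below do not name this fit. Of the 107 genes, 13 were called without each of the 5 acetate arrays in turn.

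The Th17 cytokine list had 10 tested members, of which 3 were called higher in Th17 with acetate and none lower, against 9 higher without acetate. Its median difference was 0.93 with acetate and 3.32 without, where the medians of all genes tested were -0.02 and -0.01. The acetate median was 0.50 on leaving out acetate Treg replicate 2, and 2 members were called on leaving out either Treg array. Il17a had the largest difference, 8.02 (SE 0.33, limma adjusted p = 3.5e-08). In untreated cultures it read 713, 638 and 597 in Th17 and 1.40 and 7.55 in Treg, a difference of 6.58, and the 3 acetate Th17 signals lay above all 3 untreated ones. The interaction value of 1.44 did not pass the test (adjusted p = 0.25). Il9, a cytokine of several T-helper fates that acts on mast cells and epithelium, read 879, 532 and 419 in acetate Th17 and 11.3 and 14.1 in acetate Treg. It too did not overlap, and the difference of 5.22 (SE 0.45) passed the test (adjusted p = 0.00013). Il21, the cytokine with which Th17 cells support their own fate and B cells, read 260.1, 192 and 264 in Th17 and 21.6 and 30.8 in Treg. In untreated cultures it read 911, 1052 and 1214 in Th17 and 5.40 and 15.1 in Treg, so the acetate Th17 signals lay far below the untreated Th17 ones while both contrasts were called. The acetate difference was 3.05 (SE 0.52, adjusted p = 0.015) against 6.42 without acetate, the interaction value -3.37 did not pass the test (adjusted p = 0.076), and the acetate call was lost on leaving out either acetate Treg array (adjusted p = 0.17 and 0.14).

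The other members of the cytokine list were not called with acetate. Ccl20, the chemokine ligand of Ccr6, read 226, 57.7 and 232 in acetate Th17 and 44.2 and 21.0 in acetate Treg (difference 2.14, adjusted p = 0.087). All 3 Th17 signals lay above both Treg signals, but replicate 2 was near the Treg arrays. Csf2, which encodes GM-CSF, read 29.6, 30.04 and 36.5 in Th17 and 49.4 and 17.0 in Treg, against 269, 311 and 379.7 in Th17 and 43.6 and 52.7 in Treg in untreated cultures. Its groups overlapped with acetate and stood well apart without it, and the untreated difference of 2.65 was called (adjusted p = 0.010). That call was lost on leaving out untreated Treg replicate 1 or 2 (adjusted p = 0.093 and 0.067). Lta, a lymphotoxin, had an acetate difference of 0.95 (adjusted p = 0.22) and an untreated one of 2.90 (adjusted p = 0.00012). Il10, an anti-inflammatory cytokine of many T cells, read 1219, 571 and 718 in acetate Th17 and 806 and 927 in acetate Treg, with overlap. Its signals in untreated cultures were lower throughout, 343, 213 and 216 in Th17 and 76.2 and 76.6 in Treg.

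Il24, a cytokine of the IL-10 family, showed the largest departure between the contrasts. It read 2489, 1819.6 and 2314 in acetate Th17 and 2063 and 1095 in acetate Treg, and 618, 751 and 614 in Th17 and 18.5 and 14.1 in Treg in the untreated cultures. Acetate Treg signals were thus within or near the acetate Th17 range, while untreated Treg signals were close to the level of the filter on dim genes (a signal of 9.10). The difference was 0.54 (SE 0.40, adjusted p = 0.67) with acetate and 5.11 without, and the interaction was called (-4.57, SE 0.56, adjusted p = 0.0033).

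Of the 15 tested Th17 factors and receptors 5 were called higher in Th17 with acetate and 0 lower, with a list median of 0.96, against 8 higher, 0 lower and a median of 1.67 without acetate. The acetate calls numbered 2 on leaving out acetate Treg replicate 1 and 3 without acetate Th17 replicate 2. Ccr6, the chemokine receptor that brings Th17 cells to Ccl20, read 578, 548 and 324 in acetate Th17 and 45.5 and 15.2 in acetate Treg. Untreated Th17 read 298, 312 and 409 and untreated Treg 102 and 105, so the acetate Treg arrays were the lowest of the 4 groups. The acetate difference was 3.99 (SE 0.35, adjusted p = 0.00013) and the untreated one 1.67 (adjusted p = 0.0075), and the interaction value of 2.31 missed the threshold (adjusted p = 0.067). The untreated call for Ccr6 was lost on leaving out untreated Treg replicate 1 or 2 (adjusted p = 0.070 and 0.065). Tmem176a and Tmem176b, neighbouring genes for membrane proteins that Th17 cells express, had acetate differences of 2.62 (adjusted p = 0.0020) and 2.61 (adjusted p = 0.00040). The signals of Tmem176b were 629, 491 and 304 in acetate Th17 and 76.9 and 67.2 in acetate Treg. The call for Tmem176a was lost on leaving out acetate Treg replicate 1 (adjusted p = 0.051), and that for Tmem176b stood in each alternative.

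Among the transcription factors of the list, Ahr and Rora were called with acetate, and each call was lost without some single arrays. Ahr, the aryl hydrocarbon receptor, read 519.5, 751 and 719 in acetate Th17 and 108 and 229 in acetate Treg (difference 2.03, adjusted p = 0.015). The groups were apart, but the call was lost on leaving out acetate Th17 replicate 2 (adjusted p = 0.058) or acetate Treg replicate 1 (adjusted p = 0.17). The call was also lost on the mean of its 2 probe sets (adjusted p = 0.059), the dimmer of which differed by 0.50. Rora, a ROR family receptor that supports the Th17 fate, read 441, 1032 and 538 in Th17 and 128 and 109 in Treg. The groups did not overlap, its difference of 2.37 just passed (adjusted p = 0.048), and the call was lost without any of 9 single arrays, with an adjusted p of up to 0.38 on leaving out acetate Treg replicate 2. With every probe set tested on its own, 5 other probe sets of Rora were called higher (differences 2.42 to 3.31, adjusted p = 0.0076 to 0.036), while the one used here was not (adjusted p = 0.056). The other 3 were dim and not called. Maf, which drives Il21 and Il10, read 167, 349 and 584 in acetate Th17 and 117 and 177 in acetate Treg. Those groups overlapped, whereas the untreated arrays read 681, 712 and 564 in Th17 and 57.7 and 35.7 in Treg and differed by 3.75 (adjusted p = 0.00023). Irf4, a factor of activated T cells, had differences of 0.96 with acetate (adjusted p = 0.070) and 2.08 without (adjusted p = 0.00011). Stat3 and Batf, which act early in the fate, read 1324 to 1788 and 583 to 1017 over the 5 acetate arrays and were called in neither contrast. Ltb4r1, a leukotriene B4 receptor, read 218, 425 and 685 in Th17 and 208 and 209 in Treg with acetate and 382, 569 and 492 in Th17 and 33.3 and 16.8 in Treg without. The change in its difference from 4.15 to 0.93 passed the interaction test (-3.23, adjusted p = 0.029), a call lost without any of 7 single arrays (adjusted p = 0.054 to 0.21). Il23r, Il22 and Il17f were not analysed here, since they lie on no probe set with a single gene symbol in the annotation used.

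ROR receptors bind DNA with the core AGGTCA, so the promoter windows of the Th17 genes were searched for these letters on both strands. RefSeq windows (build GRCm38.p6) run from 250 bases before a gene's start to 50 bases from it on. Of the 25 tested genes of both Th17 lists 19 had a window. The letters were held by 4 of these genes (21.1%), Il17a, Ccr6, Ccl20 and Hif1a. The share was 14.8% of the 8920 tested genes with a window and 18.1% of all 27025 genes with one. Counted by window, it was 4 of 25 for the Th17 genes (16%), 12.4% for tested genes and 16.3% of all 32851. Of the genes with a window called at both treatments, 4 of 27 higher in Th17 (14.8%) and 5 of 37 lower (13.5%) held the letters. The windows of Il17a and Ccr6, called with acetate, are shown with the match in capitals, which reads TGACCT because it lies on the reverse strand. The match starts at position -120 from the start of Il17a and at -44 from that of Ccr6, and the other window of Ccr6 held none.
Il17a, chr1:20730655-20730954, + strand: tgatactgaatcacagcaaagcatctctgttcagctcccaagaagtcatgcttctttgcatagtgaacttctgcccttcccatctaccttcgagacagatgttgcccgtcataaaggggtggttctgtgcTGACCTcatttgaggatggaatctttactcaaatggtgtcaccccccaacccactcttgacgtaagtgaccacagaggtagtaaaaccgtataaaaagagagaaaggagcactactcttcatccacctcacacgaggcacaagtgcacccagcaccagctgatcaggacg
Ccr6, chr17:8235793-8236092, + strand: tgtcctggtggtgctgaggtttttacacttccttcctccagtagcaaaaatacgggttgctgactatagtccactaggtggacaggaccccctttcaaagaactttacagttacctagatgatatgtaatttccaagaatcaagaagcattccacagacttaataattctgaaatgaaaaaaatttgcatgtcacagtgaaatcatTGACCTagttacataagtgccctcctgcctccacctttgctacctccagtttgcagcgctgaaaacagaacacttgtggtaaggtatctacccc
The matches are letters in a window and no evidence of binding.

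Outside the Th17 lists, several genes were called higher in Th17 both with and without acetate. Tox2, a nuclear factor of the TOX family found in activated and follicular helper T cells, read 633, 1308 and 362 in acetate Th17 and 36.8 and 52.4 in acetate Treg. The Th17 signals varied among themselves but lay far above both Treg signals, and the difference was 3.84 (SE 0.45, adjusted p = 0.00082) against 3.87 without acetate. Timd2, a surface receptor of the TIM family, had differences of 3.501 (adjusted p = 0.00070) and 3.497. Ppp1r3c, a subunit that targets protein phosphatase 1 to glycogen, read 19.7, 51.6 and 39.2 in acetate Th17 against 2.08 and 1.41 in acetate Treg, both Treg signals lying below the filter level, and differed by 2.98 (adjusted p = 0.0058). Aqp3, a channel for water and glycerol, differed by 2.67 (adjusted p = 0.0072), and Pdpn, the surface glycoprotein podoplanin, by 2.43 (adjusted p = 0.0062). The calls for Ppp1r3c and Pdpn were lost on leaving out either acetate Treg array (adjusted p = 0.055 and 0.12 for Ppp1r3c, 0.085 and 0.12 for Pdpn), and that for Aqp3 on leaving out acetate Treg replicate 1 (adjusted p = 0.13).

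Timp1, a secreted inhibitor of matrix metalloproteinases, was called in both contrasts and in the interaction, the only gene of which this held. It read 738, 1747 and 1697 in acetate Th17 and 199.9 and 149 in acetate Treg, and 1129, 1524 and 1273 in Th17 and 23.3 and 28.3 in Treg in untreated cultures. The Th17 ranges overlapped between treatments, while both acetate Treg signals lay above both untreated Treg signals. The difference was 2.89 (SE 0.31, adjusted p = 0.00051) with acetate and 5.50 without (adjusted p = 8.2e-07), and the interaction value was -2.62 (adjusted p = 0.017). The interaction call was lost on leaving out acetate Treg replicate 1 (adjusted p = 0.15) and without 4 of the untreated arrays (adjusted p = 0.059 to 0.10).

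**Figure D2:**
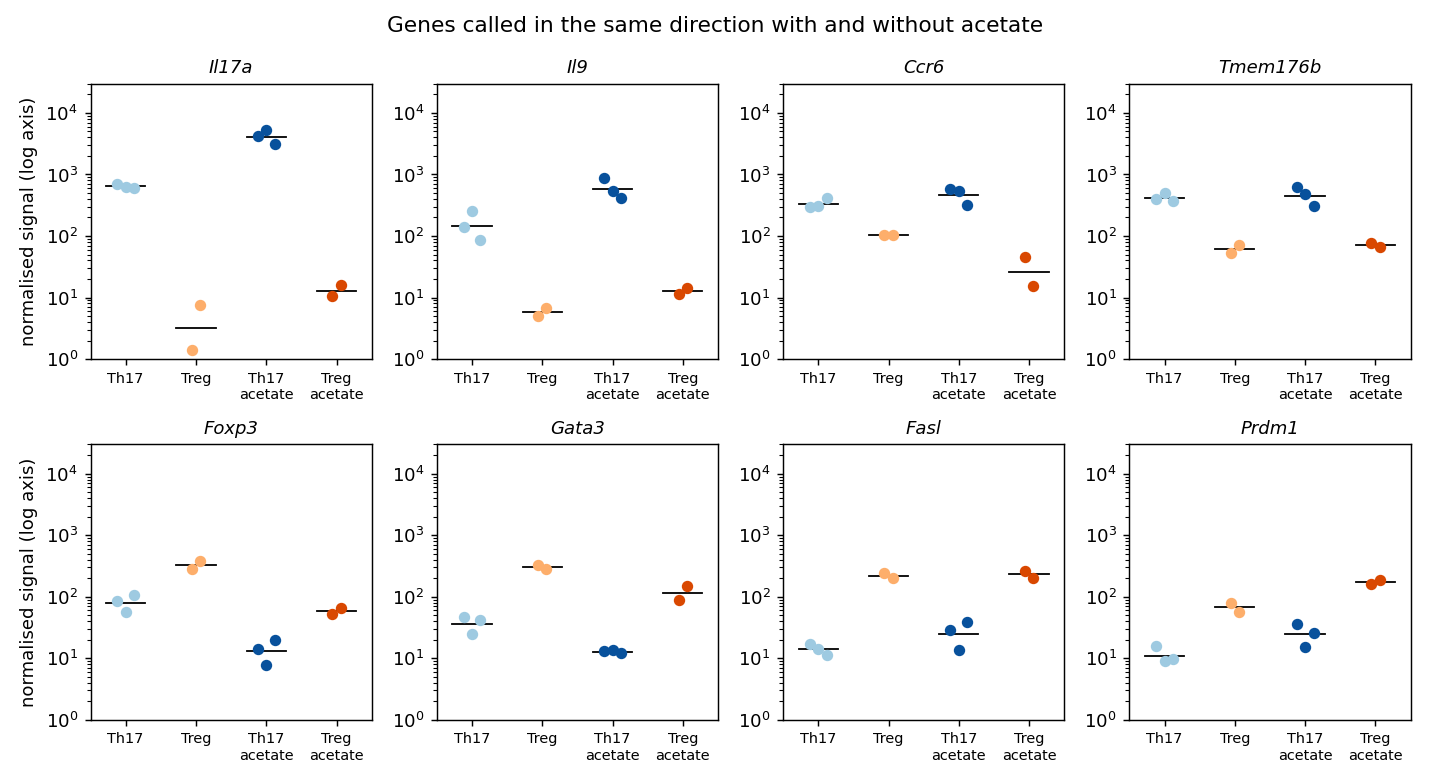
Normalised signal (log axis) of 8 genes called both with and without acetate, 1 point per array in the 4 groups of Th17 and Treg cultures, with the line at each group's geometric mean. Il17a, Il9, Ccr6 and Tmem176b lie higher in Th17 and Foxp3, Gata3, Fasl and Prdm1 higher in Treg at both treatments, with no overlap of the 2 fates within a treatment.

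Of 20 tested Treg markers 3 were called lower in Th17 with acetate and 0 higher, and the list median was -0.11, near the -0.02 of all genes. On the signals as deposited the split turned to 1 higher and 0 lower, with a list median of 0.14 under the all-gene median of 0.25. Without acetate, on the normalised signals, 2 were called higher and 3 lower, with a list median of -0.003. Of the 3 acetate calls, Foxp3 and Entpd1 were also called lower without acetate, and Il2rb was not called there. Foxp3, whose signals are given above, differed by -1.93 (SE 0.33, adjusted p = 0.016) with acetate and by -2.002 without (adjusted p = 0.0018), with an interaction value of 0.07 (adjusted p = 0.98). The acetate call for Foxp3 was lost on leaving out acetate Th17 replicate 2 (adjusted p = 0.052), acetate Treg replicate 1 (adjusted p = 0.10) or replicate 2 (adjusted p = 0.25), and on the signals as deposited (adjusted p = 0.067). Entpd1, the ectoenzyme CD39 that begins the conversion of extracellular ATP to adenosine, read 36.1, 55.2 and 86.3 in acetate Th17 and 215 and 208 in acetate Treg. Its groups were well apart at -1.87 (SE 0.33, adjusted p = 0.016). The call was lost in the same settings as that of Foxp3 (adjusted p = 0.058 without acetate Th17 replicate 2 and 0.065 as deposited). It was also lost on the mean of the probe sets of Entpd1. Tested on their own, its dimmer probe sets differed by -1.12 and -1.77 and were not called. Il2rb, the IL-2 receptor beta chain, was the third call (-0.75, adjusted p = 0.028) and was lost on leaving out acetate Th17 replicate 2, either acetate Treg array or untreated Th17 replicate 3 (adjusted p = 0.052 to 0.27) and under both other scalings.

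Other defining Treg genes were not called with acetate. Ikzf2, which encodes Helios, read 145, 177 and 85.9 in acetate Th17 and 263 and 332 in acetate Treg, and 115, 101 and 104 in Th17 and 553 and 644 in Treg in untreated cultures. The groups did not overlap in either treatment, but the acetate difference of -1.16 missed the threshold (adjusted p = 0.078) while the untreated -2.45 passed (adjusted p = 0.00013). Il2ra, the IL-2 receptor alpha chain CD25, read 1226, 1485 and 1167 in acetate Th17 and 1640.0 and 1266 in acetate Treg, with overlap. Untreated Treg arrays were lower, at 521 and 483 against 1231, 1272 and 1237 in untreated Th17, a called difference of 1.31 (adjusted p = 0.0079) in the direction of Th17. That call was lost on leaving out untreated Treg replicate 1 or 2 (adjusted p = 0.057 and 0.082). Ctla4, the inhibitory receptor, read 1923 to 3916 in acetate Th17 and 3582 to 3688 in acetate Treg and was called in neither contrast.

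Gata3, the factor of the Th2 fate that Treg cells also use, read 13.1, 13.5 and 11.997 in acetate Th17 and 88.9 and 151 in acetate Treg. The 3 Th17 signals were nearly alike and close to the filter level, and the difference of -2.91 (SE 0.41, adjusted p = 0.0050) compared with -2.95 in untreated cultures. The call was lost on leaving out acetate Treg replicate 2 (adjusted p = 0.13). It was the only call among the 6 tested Th2 genes with acetate. Il4 did not differ beyond the test (difference -0.88, adjusted p = 0.41).

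The Treg cultures carried the higher signals of many Th1 and cytotoxic genes. Of 25 tested 4 were called lower in Th17 with acetate and 0 higher, with a list median of -1.18, against 13 lower, 1 higher and a median of -1.84 without acetate. The acetate count was 7 on leaving out acetate Th17 replicate 1, 2 without replicate 2, and 1 on leaving out either acetate Treg array, and the median was -0.73 on leaving out acetate Th17 replicate 2. No member passed the interaction test. Fasl, the death ligand of cytotoxic T cells, read 28.9, 13.9 and 38.4 in acetate Th17 and 267 and 202 in acetate Treg (difference -3.06, SE 0.32, adjusted p = 0.00040). The granule proteases Gzma and Gzmc differed by -2.27 (adjusted p = 0.023) and -2.64 (adjusted p = 0.019), and Gzma read 2586, 852 and 3307 in acetate Th17 and 8734 and 9985 in acetate Treg. Without acetate Gzma read 373, 259 and 438 in Th17 and 4644 and 4583 in Treg, so signals were higher with acetate in both fates. Eomes, a T-box factor of cytotoxic cells, differed by -2.38 (adjusted p = 0.035). The calls for Gzma, Gzmc and Eomes were lost on leaving out either acetate Treg array, with adjusted p of 0.16 and 0.27 for Gzma, 0.13 and 0.27 for Gzmc, and 0.18 and 0.33 for Eomes. Gzmc and Eomes were also lost on leaving out acetate Th17 replicate 2 (adjusted p = 0.061 and 0.12), and Eomes without 4 further arrays (adjusted p = 0.061 to 0.071) and on the signals as deposited (adjusted p = 0.053).

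Gzmb, the main granzyme, read 11469, 4403 and 7569 in acetate Th17 and 12624 and 12197 in acetate Treg, and 2270.4, 538 and 1444 in Th17 and 10859 and 10768 in Treg in untreated cultures. The acetate Th17 signals lay above every untreated Th17 signal, and its difference was -0.77 (adjusted p = 0.57) with acetate and -3.16 without (adjusted p = 0.00082). Tbx21, the factor of the Th1 fate, read 187, 101 and 104 in acetate Th17 and 159 and 219 in acetate Treg, with overlap. Its untreated difference of -2.002 was called (adjusted p = 0.017) but not on leaving out untreated Treg replicate 1 or 2 (adjusted p = 0.12 and 0.11), and its acetate difference of -0.56 was not (adjusted p = 0.72). Ifng, the Th1 cytokine, read 3149, 195 and 322 in acetate Th17 and 3772 and 1711 in acetate Treg. Replicate 1 of acetate Th17 stood within the Treg range and the other 2 far below it, and the difference of -2.11 had an SE of 0.97 (adjusted p = 0.40).

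Further genes were higher in Treg with and without acetate. Prdm1, which encodes the repressor Blimp-1 of effector and Treg cells, read 36.2, 15.5 and 25.8 in acetate Th17 and 161 and 187 in acetate Treg (difference -2.68, adjusted p = 0.00070; -2.31 without acetate). Itgb3, the integrin beta 3 chain, read 32.7, 45.1 and 26.9 in Th17 and 181 and 309 in Treg with acetate (difference -2.69, adjusted p = 0.00082; -4.68 without), and Serpinb6b, an inhibitor of serine proteases inside cells, 141, 108 and 159 in Th17 and 816 and 965 in Treg (-2.70, adjusted p = 0.00014; -3.74 without). None of these 3 overlapped between the fates. Havcr2, the inhibitory receptor TIM-3, differed by -2.26 (adjusted p = 0.015) with acetate and -2.76 without, and with Entpd1 made up the 2 calls among the 11 tested inhibitory receptors and adenosine enzymes. Its call was lost on leaving out acetate Th17 replicate 2 (adjusted p = 0.060), acetate Treg replicate 1 (adjusted p = 0.11) or replicate 2 (adjusted p = 0.24). Pdcd1, the receptor PD-1, was called lower without acetate (-1.98, adjusted p = 0.0014) and not with it (-0.55, adjusted p = 0.54). Itih5, a heavy chain of the inter-alpha-trypsin inhibitor family, differed by -3.08 (adjusted p = 0.0021) and was lost on leaving out acetate Treg replicate 2 (adjusted p = 0.067). Pglyrp1, a peptidoglycan recognition protein, differed by -2.97 (adjusted p = 0.0073) and was lost on leaving out acetate Treg replicate 1 or 2 (adjusted p = 0.050 and 0.18).

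The 30 genes called with acetate only, 15 in each direction, had for the most part the same direction without it (27 of 30). Among them 2 passed the interaction test, Lum and Klra5. Ffar2, the G protein-coupled receptor for acetate and other short-chain fatty acids, read 22.5, 21.8 and 33.0 in acetate Th17 and 129 and 227 in acetate Treg. Untreated Th17 read 20.0, 18.7 and 26.9 and untreated Treg 20.7 and 29.6, so the acetate Treg arrays stood alone above the other 3 groups, which overlapped. The acetate difference was -2.62 (SE 0.38, adjusted p = 0.0051) and was lost on leaving out acetate Treg replicate 2 (adjusted p = 0.14). The untreated difference was -0.18 (adjusted p = 0.81) and the interaction value of -2.44 did not pass the test (adjusted p = 0.075). Ffar2 was the only call with acetate among 10 tested genes of acetate transport, activation and histone acetylation. The acetate-activating enzymes Acss1 of mitochondria and Acss2 of cytosol and nucleus had acetate differences of -0.87 (adjusted p = 0.27) and 0.07 (adjusted p = 0.95). Without acetate Acss1 was called lower in Th17 (limma adjusted p = 0.0010), with differences of -2.35 to -1.67 over the alternatives. Acss2 was not called without acetate (adjusted p = 0.17). No member of this list passed the interaction test.

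Lum, the matrix proteoglycan lumican, read 104, 139 and 104 in acetate Th17, 1.64 and 7.50 in acetate Treg, 13.8, 6.75 and 8.41 in untreated Th17 and 2.67 and 10.2 in untreated Treg. The acetate Th17 arrays were the high group, the others lying near or below the filter level, so its fold depends on the added 3. The acetate difference was 4.08 (adjusted p = 0.00070) and the interaction value 3.57 (adjusted p = 0.027). The interaction call was lost on leaving out acetate Th17 replicate 1 or 2, acetate Treg replicate 1, untreated Th17 replicates 2 or 3 or untreated Treg replicate 2 (adjusted p = 0.053 to 0.20). Klra5, a receptor of the Ly49 family of natural killer cells, read 13.0, 6.24 and 20.8 in Th17 and 71.9 and 71.1 in Treg with acetate and 25.5, 13.3 and 18.8 in Th17 and 9.70 and 6.59 in Treg without. The order of the fates was turned with acetate, and the values were -2.29 (adjusted p = 0.029) with acetate, 0.97 without (adjusted p = 0.20) and -3.26 for the interaction (adjusted p = 0.047). Both calls rested on single arrays, the acetate one being lost on leaving out acetate Th17 replicate 2, either acetate Treg array or untreated Th17 replicate 3 (adjusted p = 0.054 to 0.27) and the interaction without any of 9 (adjusted p = 0.069 to 0.24). Cd5l, a secreted scavenger receptor family protein, read 274, 155 and 46.0 in acetate Th17 and 13.9 and 14.9 in acetate Treg, with a call (2.89, adjusted p = 0.045) that was lost without any of 9 of the arrays (adjusted p = 0.064 to 0.31).

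Most genes that set the fates apart without acetate were not called with it. The 1154 genes called only without acetate had the same sign with acetate in 984 cases, and 48 of them passed the interaction test. Of the 1231 untreated calls 1038 had an absolute difference under 1 with acetate, which is a description, since they were chosen on the untreated arrays. Across all tested genes, whether called or not, 446 (4.09%) differed by at least 1 with acetate and 1224 (11.2%) without, and 251 did so in both with the same sign. Across genes, which are not independent, the 2 sets of differences correlated at r = 0.539.

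Cysltr1, a receptor for cysteinyl leukotrienes, read 276, 252 and 505 in acetate Th17 and 214 and 139 in acetate Treg, and 978, 1297 and 1061 in Th17 and 52.1 and 29.6 in Treg in untreated cultures. Acetate Th17 signals were below and acetate Treg signals above their untreated counterparts, and the interaction was called (-3.80, adjusted p = 0.0033). The same order held for Enah, a regulator of actin filaments, with 152, 132 and 247 in Th17 and 212 and 216 in Treg with acetate against 553, 601 and 475 in Th17 and 74.6 and 47.1 in Treg without (interaction -3.44, adjusted p = 0.0029). Fabp5, a fatty acid binding protein (interaction -1.56, adjusted p = 0.0095), and Pcx, the mitochondrial enzyme pyruvate carboxylase (-2.296, adjusted p = 0.0095), were likewise called higher in untreated Th17 and not with acetate. Ccr4, a chemokine receptor of Th2, Treg and skin-homing T cells, read 65.9, 71.6 and 108 in Th17 and 77.7 and 63.0 in Treg with acetate, where the groups overlapped, and 86.0, 93.9 and 98.4 in Th17 and 22.0 and 11.9 in Treg without (-2.13, adjusted p = 0.023). The interaction call for Ccr4 was lost on the signals as deposited. On leaving out acetate Treg replicate 1 the interaction p of these genes was 0.19 for Ccr4, and 0.093 and 0.093 for Fabp5 and Pcx, above the threshold of 0.05. Calls for Ccr4 were also lost without 5 further arrays (adjusted p = 0.060 to 0.16), and that for Fabp5 without untreated Treg replicate 1 (adjusted p = 0.052).

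In the other direction, Ms4a4b, a membrane protein of the MS4A family in T cells, read 963, 1358 and 864 in acetate Th17 and 1136 and 1497 in acetate Treg, and 615, 366 and 368 in Th17 and 4616 and 4258 in Treg without acetate. The high signals were those of untreated Treg, and the interaction was 3.01 (SE 0.34, adjusted p = 0.0029). Cd9, a tetraspanin, read 399.8, 376 and 249 in Th17 and 389.8 and 353 in Treg with acetate and 73.9, 64.2 and 75.6 in Th17 and 316 and 284 in Treg without. Here the low signals were those of untreated Th17, and the interaction of 1.88 (adjusted p = 0.014) was lost without any of the 4 Treg arrays (adjusted p = 0.066 to 0.093), on the signals as deposited (adjusted p = 0.097) and with array medians subtracted (adjusted p = 0.051). Foxp1, a factor of naive T cells, had an untreated difference of -1.13 and an acetate difference of 0.21, with an interaction of 1.34 (adjusted p = 0.0097). The untreated call was lost on the signals as deposited (adjusted p = 0.15). The interaction call was lost under both other scalings (adjusted p = 0.37 and 0.084) and on leaving out acetate Treg replicate 1 or untreated Treg replicate 2 (adjusted p = 0.093 and 0.098). Cxcr3, the Th1-type chemokine receptor, read 329.9, 209 and 260.5 in Th17 and 233 and 343 in Treg with acetate and 52.1, 41.9 and 63.6 in Th17 and 438 and 463 in Treg without. Acetate Th17 signals were above untreated ones, and the interaction of 2.94 missed the threshold (adjusted p = 0.074).

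**Figure D3:**
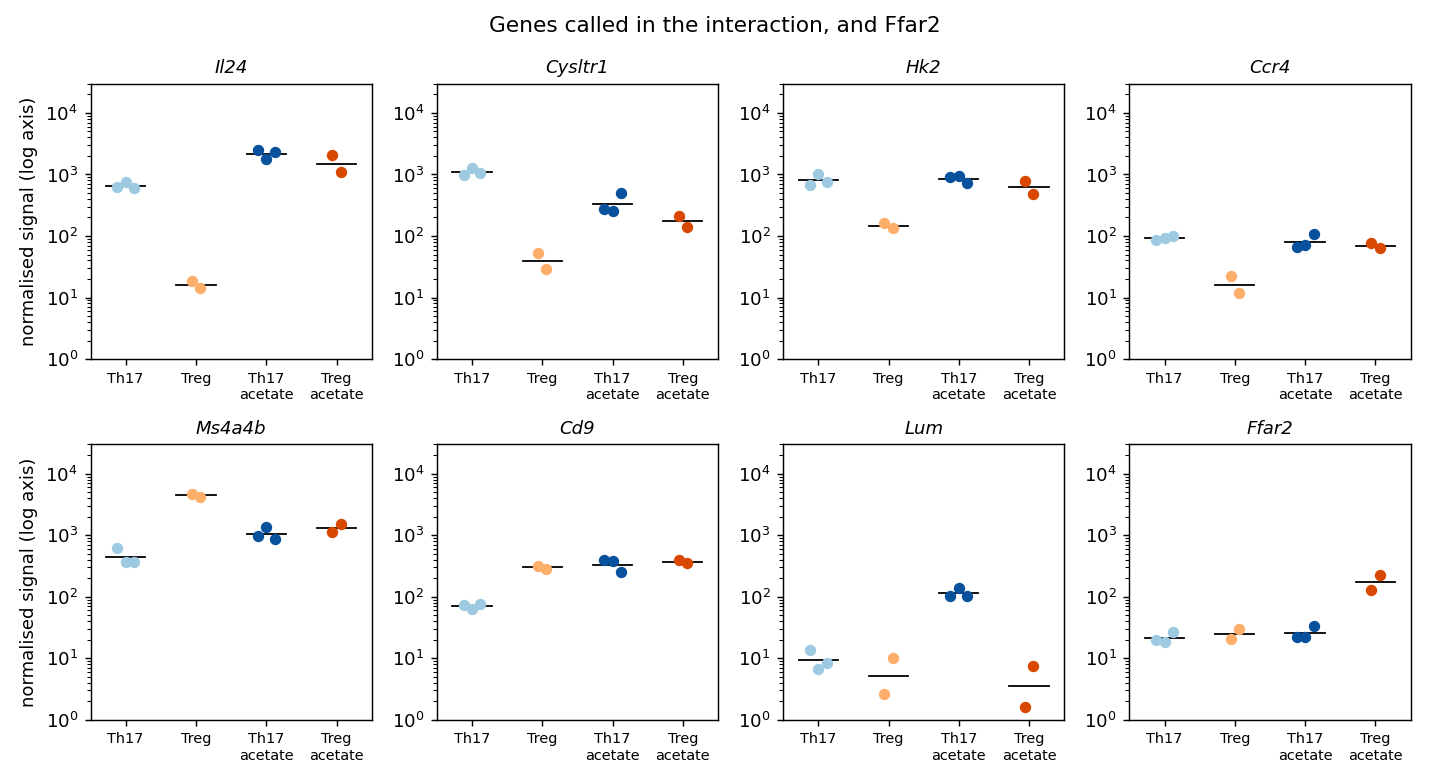
Normalised signal (log axis) of 7 genes called in the interaction, and of Ffar2, by array in the 4 groups, with the line at each group's geometric mean. Il24, Cysltr1, Hk2, Ccr4, Ms4a4b and Cd9 separate the fates without acetate. With acetate the fates overlap for Il24, Hk2, Ccr4, Ms4a4b and Cd9, and Cysltr1 lies higher in Th17 by less than without it. Lum and Ffar2 separate only among the acetate arrays.

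Most interferon-response genes were called in the untreated contrast and not with acetate. Of 24 tested 20 were called lower in Th17 without acetate (median -1.91), and 1 with acetate (median -0.55), a count that held under both other scalings of the acetate arrays. The acetate median was -0.30 on the signals as deposited, beside the all-gene median of 0.25. In the interaction 0 of the 24 passed limma's adjusted test, where 1087 of all genes had an unadjusted p under 0.05, so a difference between the contrasts was not shown for this list. The Th17 protocol names an antibody against IFN-gamma and the Treg protocol does not. The 1 call with acetate was Isg20, an interferon-induced exonuclease, at 50.3, 77.2 and 66.4 in acetate Th17 and 320.2 and 297 in acetate Treg. Its untreated signals were of like size, 72.1, 60.3 and 76.7 in Th17 and 344 and 268 in Treg, and the differences were -2.22 (SE 0.22, adjusted p = 0.00036) and -2.08. Ifit3, an interferon-induced antiviral protein, read 5.79, 10.0 and 1.67 in acetate Th17 and 7.85 and 9.33 in acetate Treg against 12.1, 0.827 and 1.67 in Th17 and 83.7 and 73.9 in Treg without acetate. Only the untreated Treg arrays stood clearly above the filter level, and the interaction value of 3.15 did not pass (adjusted p = 0.13). Igtp, an interferon-gamma-induced GTPase, read 2314, 1584 and 2161 in Th17 and 2299.9 and 2563 in Treg with acetate, with overlap, and 2448, 1411 and 1732 in Th17 and 4916 and 5200.5 in Treg without. Irf1, a factor induced by interferons, differed by -2.13 without acetate and -1.02 with it (adjusted p = 0.11). Calhm6 and Ifi209, interferon-induced genes outside the list, were called lower in Th17 with acetate (adjusted p = 0.0051 and 0.027) and without (0.00015 and 0.00012). Over the alternatives their acetate differences ran from -3.24 to -1.16 and from -3.40 to -1.57. Their acetate calls were lost in 2 and 7 of 21 alternatives. Gbp7, a guanylate-binding GTPase named for the size of its difference rather than through the list, was called lower with acetate (-2.53, adjusted p = 0.0051) and without (-3.40, adjusted p = 8.5e-05). The acetate call was lost on leaving out either acetate Treg array (adjusted p = 0.055 and 0.12).

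Because interferon-response genes share a DNA element bound by STAT and IRF factors, the same promoter windows were searched on both strands for GAAA, any 2 bases and GAAA again. Of the 24 list members 20 had a window and 13 of these genes (65%) held a match, against 3.99% of all 27025 genes with a window. Counted by window, the share was 51.9% of the 27 windows of these members and 3.44% of all 32851. Isg20 had windows with no match in them. The list was made of interferon-response genes, so its share of 65% was likely in advance and bears on neither the fates nor acetate. These matches too are no evidence of binding. The letters were held by 1 of 27 genes with a window called higher in Th17 at both treatments (3.7%) and by 5 of 37 called lower (13.5%). The windows of 2 list members whose fates were apart only without acetate are shown with the matches in capitals. The match starts at -34 in Igtp and lies on the forward strand, and both matches in Ifit3 lie on the reverse strand.
Ifit3, chr19:34583279-34583578, + strand: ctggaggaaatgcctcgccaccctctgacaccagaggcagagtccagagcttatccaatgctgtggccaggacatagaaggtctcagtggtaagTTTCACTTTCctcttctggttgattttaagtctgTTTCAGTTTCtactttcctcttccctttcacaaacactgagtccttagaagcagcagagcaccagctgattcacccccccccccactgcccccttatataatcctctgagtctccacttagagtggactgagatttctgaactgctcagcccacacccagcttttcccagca
Igtp, chr11:58199306-58199605, + strand: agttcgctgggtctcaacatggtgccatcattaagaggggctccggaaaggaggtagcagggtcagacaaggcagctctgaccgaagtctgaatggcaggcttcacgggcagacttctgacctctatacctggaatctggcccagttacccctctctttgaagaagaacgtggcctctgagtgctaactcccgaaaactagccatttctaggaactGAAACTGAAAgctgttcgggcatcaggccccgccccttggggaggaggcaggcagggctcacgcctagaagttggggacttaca

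Many genes of glycolysis and of the hypoxia response were called higher in untreated Th17 cultures, and none were called with acetate. Of 13 tested glycolysis genes 8 were called higher without acetate (median 0.74) and 0 with it (median -0.01). Hk2, the inducible hexokinase, read 898, 933 and 732 in acetate Th17 and 782 and 491 in acetate Treg against 681, 1017 and 751 in Th17 and 163 and 134 in Treg without acetate. The Th17 signals overlapped between treatments, while the acetate Treg signals lay above the untreated Treg ones, and the interaction was -1.97 (adjusted p = 0.014). Tpi1, triosephosphate isomerase, read 3672, 3761 and 3596 in Th17 and 3452 and 3520.1 in Treg with acetate and 4049.9, 4075 and 4583 in Th17 and 1961 and 1427 in Treg without (interaction -1.26, adjusted p = 0.017). Pfkl, a phosphofructokinase, had an interaction of -1.82 (adjusted p = 0.047). These 3 were the glycolysis genes called in the interaction. The calls for Tpi1 and Pfkl were lost with no variance trend and with the replicate block. That for Tpi1 was also lost on the signals as deposited, and that for Pfkl with an added constant of 1. The call for Hk2 was lost on leaving out acetate Treg replicate 1 (adjusted p = 0.12) or untreated Treg replicate 2 (adjusted p = 0.11), that for Tpi1 without any of 5 single arrays (adjusted p = 0.051 to 0.12), and that for Pfkl without any of 9 (adjusted p = 0.066 to 0.25).

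Of 14 tested hypoxia-response genes 9 were called higher in Th17 without acetate and 0 with it, and the median went from 1.56 to -0.05 (0.22 on the signals as deposited, under the all-gene median of 0.25). The acetate median was 0.35 on leaving out acetate Th17 replicate 1 and -0.27 on leaving out replicate 2. In the interaction 0 of the 14 passed limma's adjusted test, so a difference between the contrasts was not shown for this list. Bnip3, a mitochondrial protein of the BCL2 family, read 2044, 3722 and 3203 in acetate Th17 and 3182 and 3092 in acetate Treg, and 2036, 2910.1 and 2774 in Th17 and 687 and 411 in Treg without acetate. Only the untreated Treg arrays were low, the 2 arrays with Gapdh control ratios of 1.22 and 1.23, and the part of this in the result was not tested. Egln3, an oxygen-sensing prolyl hydroxylase, showed the same order (1010.0, 2929.5 and 2082 in Th17 and 1636 and 1332 in Treg with acetate, 1979, 3165 and 2519 in Th17 and 291 and 235 in Treg without). The interaction values of both missed the threshold (-2.37, adjusted p = 0.090, and -2.94, adjusted p = 0.052).

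**Figure D4:**
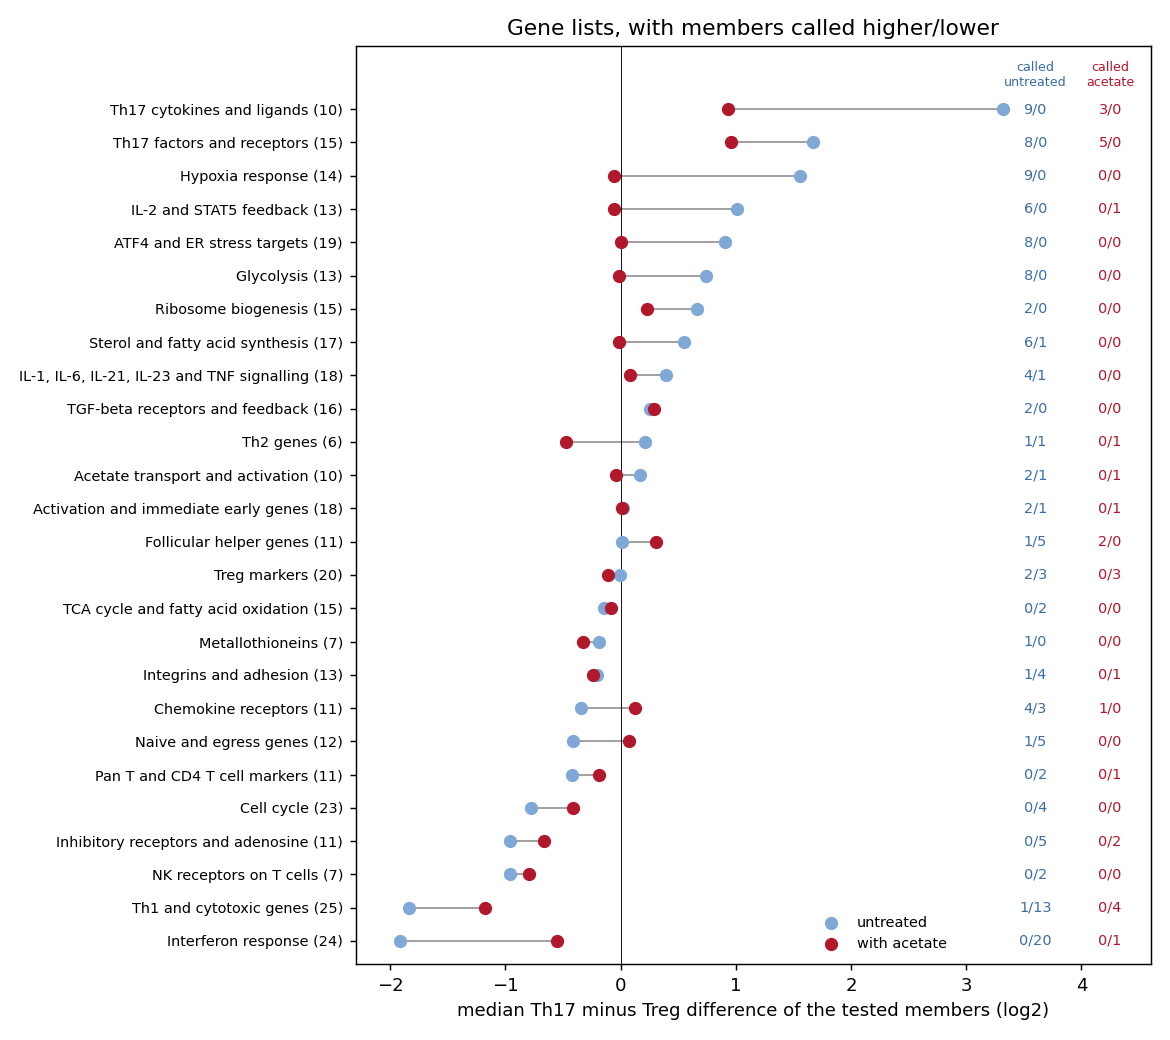
Median Th17 minus Treg difference in log2(signal + 3) of each gene list (x axis), without acetate in blue and with acetate in red, with the number of tested members called higher and lower at the right. The medians of the Th17 lists lie above 0 at both treatments, and those of the interferon (-1.91 and -0.55), hypoxia (1.56 and -0.05) and glycolysis (0.74 and -0.01) lists lie nearer to 0 with acetate.

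The remaining lists held few calls with acetate, beside a background of 0.98% of all genes. Amino acid stress genes that depend on the factor ATF4 had 0 calls of 19 with acetate (median 0.01) and 8 higher without (0.91). Sterol and fatty acid synthesis had 0 of 17, against 6 higher and 1 lower without acetate. Cell cycle genes had 0 of 23 (median -0.41), against 4 lower without (-0.78). These counts of 0 come from limma's adjusted p, and over all genes 1326 had an unadjusted p under 0.05 with acetate. The acetate median of the cell cycle list was -0.94 on leaving out acetate Th17 replicate 1, -0.14 without replicate 2 and -0.17 without replicate 3. The summed signals of this list were 18000, 7130 and 7598 in acetate Th17 and 12350 and 11300 in acetate Treg. Replicate 1 of acetate Th17 thus lay above both Treg arrays, and replicates 2 and 3 below both. In these 3 lists too 0 members passed the interaction test. Feedback genes of IL-2 and STAT5 had 1 lower of 13 (Il2rb), against 6 higher without acetate, and the acetate split was 1 higher and 0 lower on the signals as deposited. Of 11 chemokine receptors Ccr6 alone was called with acetate, and of 13 integrins and adhesion genes Itgb3 alone. Of 11 follicular helper genes 2 were called higher, Il21 and Pou2af1, a coactivator of octamer-binding factors (2.33, adjusted p = 0.048), which was lost without any of 10 arrays (adjusted p = 0.053 to 0.29). TGF-b receptors, transducers and feedback genes had 0 calls of 16 with acetate and 2 higher without. Naive and egress genes had 0 of 12, against 1 higher and 5 lower.

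Il2, a cytokine of activated T cells that was also supplied to all cultures as protein, read 1776, 953 and 468 in acetate Th17 and 95.7 and 61.0 in acetate Treg. The groups stood far apart in both treatments (1414, 755 and 1398 in Th17 and 108 and 69.0 in Treg without acetate). Its acetate difference of 3.55 (SE 0.86) missed the threshold (adjusted p = 0.079), and the untreated 3.68 passed (adjusted p = 0.014). The untreated call was lost on leaving out untreated Treg replicate 1 or 2 (adjusted p = 0.071 and 0.13), and the acetate difference was called in 5 of 22 alternatives (adjusted p = 0.0028 without the Th1 arrays and 0.0033 as deposited).

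Among the tested markers of other cell types Lum of the stromal list was the only call with acetate. Of the 8 B-cell markers named on the array 1 was under the filter level in all 5 acetate arrays, and the tested Ighm, an immunoglobulin heavy chain, read 588, 226 and 720.1 in acetate Th17 and 838 and 1555 in acetate Treg (-1.31, adjusted p = 0.17). Summed B-cell marker signals were 347 to 881 in acetate Th17 and 952 to 1675 in acetate Treg, apart by group. Pax5, Cd79a, Cd22 and Ms4a1, which define B cells, reached at most 16.5, 13.7, 12.6 and 6.96. Cd79b, a chain of the B-cell receptor, read 49.5, 43.1 and 47.9 in acetate Th17 and 65.6 and 76.5 in acetate Treg (-0.57, adjusted p = 0.69). Ebf1, a B-cell factor, read 26.5, 49.5 and 75.1 in Th17 and 26.9 and 13.5 in Treg (1.15, adjusted p = 0.41), with overlap, and Blnk reached at most 9.95. Summed signals of 14 macrophage and dendritic cell markers were 1481 to 2444 and 2040 to 2192, and those of CD8 T-cell markers 180 to 332 and 259 to 269, both with overlap. Neutrophil markers summed to 103 to 172 and 152 to 156, with overlap, and erythroid markers to 12.8 to 23.9 and 26.2 to 27.5, apart by group and at signals near the filter level. Mast-cell and basophil markers summed to 35.5 to 68.5 in acetate Th17 and 79.3 to 102 in acetate Treg, apart by group. The tested members did not share a direction. Cpa3 read 2.70, 2.99 and 0.897 in Th17 and 15.5 and 33.7 in Treg (-2.35, adjusted p = 0.077), and Mcpt8 differed by -1.35. Kit read 13.1, 26.3 and 25.3 in Th17 and 21.7 and 20.6 in Treg (-0.02). Gata2 read 4.14, 21.0 and 21.6 in Th17 and 7.82 and 9.18 in Treg (0.49). Stromal markers summed to 8729 to 10360.0 and 7268 to 8222, apart by group, and most of that sum is Vim, which T cells also express (10181, 8502 and 8844 in Th17 and 8159.7 and 7202 in Treg). Dcn, a proteoglycan of the same family as Lum, read 12.6, 20.5 and 1.79 in Th17 and 1.76 and 1.84 in Treg. The other stromal genes Col1a2, Pdgfrb, Pdgfra, Col3a1 and Col1a1 reached at most 17.5, 13.5, 12.7, 9.15 and 6.10, and the endothelial Pecam1 read 25.9 to 37.1. NK-cell markers summed to 10.1 to 12.3 and 7.91 to 20.8. The part of these markers in the results was not tested.

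Of the 107 acetate calls 11 were called in each of the 22 alternatives to the processing, 6 of them higher in Th17 (Il17a, Ccr6, Tmem176b, Tox2, Timd2 and Timp1) and 5 lower (Fasl, Prdm1, Itgb3, Serpinb6b and Isg20). With Il9 and Lum they were also the genes that were called without each of the 5 acetate arrays in turn.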

How the data were processed

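RNA of mouse Th17, Treg and Th1 cultures with and without acetate was measured on 14 Affymetrix arrays, and 10 of them, the Th17 and Treg arrays, are compared here by the groups in their labels. Each deposited value is the linear-scale intensity of a probe set, which the authors computed with MAS5, per the submitters' processing notes. The MAS5 version, its scaling target and the genome build were not given in the sources used here. Without presence calls, detection above background could not be judged, and precision is limited by the few arrays. No label gives a scan date or other batch.

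Of 45101 probe sets, 34945 that carry 1 gene symbol in the platform annotation were used (932 carry several, 9211 none, and 64 are array controls). RefSeq matched 34741 of them by Entrez identifier and changed 0 symbols. Signals were taken as log2(signal + 3) and quantile normalised over all arrays. The brightest probe set (highest mean) stood for each of 18193 genes. A mean log2 of at least 3.60 (a signal of 9.10), the 40th percentile over genes, was required, which left 10916 genes to test. Of these, 6714 had several probe sets. Of the genes called with acetate, 30 higher and 29 lower ones had other probe sets. With each probe set tested on its own, 8 and 6 of these had another called in the same direction, and 0 in the opposite one. limma 3.58.1 in R 4.3.3 fitted 6 group means (lmFit, eBayes with a trend, 8 residual and 13.1 total degrees of freedom), with 3 contrasts: the acetate one, the untreated one and their difference. On simulated data with as many genes and arrays, the acetate contrast recovered 44% of 100 genes changed by 1 on the log2 scale and 83% of 100 changed by 2, and 8 calls (5.93% of them) were false. The simulated noise was independent, with 1 spread per gene for all groups. In the data the median SD was 0.28 for acetate Th17 and 0.15 for acetate Treg, so these shares may not hold for the real arrays.

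The comparison, its members and the gene lists were chosen with earlier results of these data known. Genes were named by rule: the 15 largest differences in each direction among called acetate genes whose groups did not overlap, the 8 in each direction with the largest smaller difference among those called in both contrasts, the 8 smallest interaction p-values in each direction, a set of fate genes and acetate genes, and up to 8 members of each list, called ones first. Of the named genes, those that bear on a described group are given. Batf, Bnip3, Csf2, Ctla4, Cxcr3, Gzmb, Ifit3, Igtp, Klra5, Ltb4r1, Stat3 and the marker genes of other cell types named without a call were chosen after their values were seen. Alternatives were the scaling, the added constant, the filter on dim genes, the choice of probe set, the arrays in the fit, the variance trend, array weights, a replicate block and leaving out each array. Replicate numbers recur across groups, but no source says that they mark shared animals or days. The fit without a block is therefore the one reported.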

Additional observations from a re-analysis of the deposited data

Results flagged for a closer look

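The Th17 against Treg difference with acetate was tested directly against the untreated one, and 51 of 10916 genes passed (limma, adjusted p under 0.05), 20 with a positive and 31 with a negative value. Named genes with a positive value, where the acetate difference lay further towards Th17, were Lum (3.57), Ms4a4b (3.01), Tubb2a (2.86), Ift80 (2.37), Adgre5 (1.89), Cd9 (1.88), Ndrg3 (1.69), Lrmp (1.63) and Foxp1 (1.34). Named genes with a negative value were Il24 (-4.57), Cysltr1 (-3.80), Enah (-3.44), Klra5 (-3.26), Ltb4r1 (-3.23), Alpk2 (-2.63), Jcad (-2.63), Fam217b (-2.63), Timp1 (-2.62), Pcx (-2.296), Ccr4 (-2.13), Hk2 (-1.97), Pfkl (-1.82), Fabp5 (-1.56) and Tpi1 (-1.26). Their adjusted p-values ran from 0.0029 for Ms4a4b to 0.047 for Pfkl. Of 24 named interaction genes, 6 were called in each alternative that gave them a value (Il24, Cysltr1, Enah, Ms4a4b, Fam217b and Ift80). For 48 of the 51 the untreated contrast alone was called, so the test mostly marks genes called without acetate and not with it. Not called does not mean absent, since Cysltr1 and Ltb4r1 still lay higher in Th17 with acetate. No cause was tested. No group of 4 or more arrays was compared, so single arrays were not screened for outlying values.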

How the results depend on the processing

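Of the called values of named genes, 1 turned its direction, that of Hmgcs1, a sterol synthesis enzyme, without acetate (-0.52, and 0.073 and not called on the signals as deposited). The values of Acss2 (-0.03 to 0.36) and Il10 (-0.43 to 0.15) with acetate and of Ffar2 without it (-0.41 to 0.15), not called, also crossed 0. Acetate medians turned sign for the Treg, sterol, glycolysis and hypoxia lists on the signals as deposited (0.14, 0.29, 0.10 and 0.22). The acetate, untreated, interaction and shared calls numbered 107, 1231, 51 and 77. Without the 4 Th1 arrays the acetate calls were 230, the interaction calls 176 and the shared calls 156. With array weights there were 338 acetate, 3154 untreated, 340 interaction and 253 shared calls. With no variance trend there were 29 interaction calls, and with a constant of 16 there were 80. Among the interaction calls lost with no trend were those of Timp1, Ltb4r1, Klra5, Tpi1 and Pfkl. The 5 acetate arrays alone gave 33 calls, and the 5 untreated arrays alone, chosen after seeing the data, gave 3086. Leaving out 1 array at a time gave 18 to 153 acetate calls, 477 to 1489 untreated calls, 8 to 69 interaction calls and 16 to 115 shared calls. The interaction count was 8 on leaving out acetate Treg replicate 1, and the untreated count 507 and 477 on leaving out untreated Treg replicates 1 and 2. On the signals as deposited, where the all-gene median was 0.25 with acetate and 0.41 without, there were 77 acetate calls (60 higher, 17 lower) and 1555 untreated calls (1327 higher, 228 lower). With array medians subtracted there were 76 (42 higher, 34 lower) and 1306 (861 higher, 445 lower). The replicate block gave 80 acetate, 883 untreated, 40 interaction and 62 shared calls, and same-numbered acetate arrays deviated together at r = 0.124 and 0.0857 over only 2 pairs. The cause of these moves was not tested. Where arrays were left out, the fit also held fewer arrays. Arrays with no presence calls limit what can be said of dim genes, and 9 acetate calls had a group mean under a signal of 9.10.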
